A study of Mus musculus with 12 samples.

Results

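The ERK feedback phosphatases, Sprouty and Spred genes were followed across 12 mouse arrays. The group was defined by gene name as Dusp1, Dusp2, Dusp4, Dusp5, Dusp6, Spred1, Spred2, Spry1, Spry2 and Spry4. A probe set counted as a member when the array annotation gave it exactly 1 symbol and that symbol was one of these names. This gave 10 genes with 25 probe sets, of 18193 genes and 45101 probe sets on the array. Each gene was read through its brightest probe set, and 8 of the 10 genes passed the level filter, a mean log2(signal + 32) of at least 6.76. Dusp4 and Spry4 lay below it and were described without a test. The measure is RNA only, so it shows neither phosphatase protein nor ERK phosphorylation.

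The arrays fell into 4 groups of 3, namely knockout plus, knockout minus, control plus and control minus. Knockout stands for the label Stat5 KO, a loss of the transcription factors Stat5a and Stat5b, and control for arrays labelled as controls, with no strain, age or Cre driver given in the labels. Plus and minus are the signs in the array titles, which the treatment labels spell out as CMP given or no CMP given. In sets A and C, however, plus and minus titles alike include CMP, so what the sign stands for is not settled by the labels, and plus and minus are used here as names only. The abbreviation CMP is not explained in the labels, nor is the kind of blood cell, nor whether the 3 arrays of a group were separate animals or cultures, so p-values measure only the spread between these arrays. The titles take 3 forms, called here naming sets A, B and C, and each set holds 1 array of every group. The knockout minus array of set B carries a treatment label that calls it a control. It was grouped by its title, and values with it as a control are given where a call or a sign changed.

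The genotype labels were checked first. Through the brightest probe sets, Stat5a was lower in knockout than in control arrays by a log2 difference of -3.76 ± 0.29 (SE) in plus arrays and -3.80 ± 0.29 in minus arrays. Stat5b was lower by -4.37 ± 0.33 and -4.59 ± 0.33, each with 3 arrays per group. In a fit of all probe sets with 1 symbol, a second Stat5a probe set gave -1.57 ± 0.25 and -1.64 ± 0.25. A second Stat5b probe set gave -0.75 ± 0.30 and -0.99 ± 0.30. Neither the second Stat5a nor the second Stat5b probe set reached an adjusted p under 0.05 in limma at either sign. Within set B, the knockout minus array was below the control minus array by -4.04 for Stat5a and -4.29 for Stat5b in the brightest probe sets. These values lie between those of sets A and C, so by these probe sets the array with the conflicting label was like the other knockout minus arrays. The 4 arrays of set B stood apart from the rest in RNA quality. The log2 ratio of the 3′ to the 5′ signal of beta-actin, which rises as RNA or its copies are shortened, was 4.30 to 5.78 in set B and 0.25 to 2.14 in the other sets. It was higher in the plus array than in the minus array of the same genotype and set in 6 of 6 pairs, by 0.24 to 1.63, and the Gapdh ratio in 5 of 6. All 3 general blood cell markers and all 6 myeloid progenitor markers, among them Kit, Cd34 and Mpo, were above the level filter. The progenitor sum was 47141 to 52005 in knockout plus arrays against 50109 to 95170.3 in knockout minus arrays, which overlap, and 44273 to 48813 in control plus arrays against 51346 to 87964.5 in control minus arrays, which do not. Also above the filter were 8 of 8 neutrophil granule, 5 of 6 monocyte and macrophage, 5 of 6 dendritic cell and 5 of 5 megakaryocyte markers on the array. The neutrophil granule sum was 27059 to 49108 in knockout plus arrays and 37817 to 123486 in knockout minus arrays. It was 18319 to 145520 in control plus arrays and 30418 to 150625 in control minus arrays. Each of these sums overlapped between signs in both genotypes. No eosinophil marker of 3, no T or NK cell marker of 4 and 1 B cell marker of 5 reached the filter. The summed signal of 6 erythroid markers on the array (5 above the filter) was 748 to 2090.2 in knockout plus arrays and 5775 to 21649.7 in knockout minus arrays. It was 1505 to 4589 in control plus arrays and 6933 to 39758 in control minus arrays, with no overlap between signs in either genotype. The mast cell and basophil sum of 6 markers (4 above the filter) was 1094 to 6506 in knockout plus arrays against 6312 to 8435 in knockout minus arrays, which overlap, and 1588 to 3834 in control plus arrays against 6466 to 7872 in control minus arrays, which do not. Their part in the differences below was not tested, and in bulk RNA fewer cells of a type and less RNA per cell cannot be told apart.

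ERK is the last kinase of the RAS, RAF and MEK relay by which cytokine and growth factor receptors reach the nucleus. The cascade restrains itself through genes that its own activity induces. Dual-specificity phosphatases (Dusp) remove the activating phosphates from MAP kinases, while Sprouty (Spry) and Spred proteins act above ERK, between the receptor and RAF. Spred proteins carry neurofibromin, the RAS GTPase activator, to the membrane. Dusp1 and Dusp2 are nuclear and inducible within minutes in many cells, Dusp4 and Dusp5 are nuclear, and Dusp6 is cytoplasmic and selective for ERK.

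Promoter sequences are shown for the 3 members that differed between plus and minus arrays in both genotypes, Dusp1, Dusp6 and Spred1, and for Dusp5, whose direction depended on the naming set. They are RefSeq sequences of build GRCm38.p6 and run from 250 bases before to 50 after the start of the gene, 5′ to 3′ on its own strand. Capitals mark matches to the motifs listed after them. The windows are chr17:26508423-26508722 on the minus strand for Dusp1, and on the plus strand chr10:99262981-99263280 for Dusp6, chr2:117120821-117121120 for Spred1 and chr19:53528895-53529194 for Dusp5.
Dusp1: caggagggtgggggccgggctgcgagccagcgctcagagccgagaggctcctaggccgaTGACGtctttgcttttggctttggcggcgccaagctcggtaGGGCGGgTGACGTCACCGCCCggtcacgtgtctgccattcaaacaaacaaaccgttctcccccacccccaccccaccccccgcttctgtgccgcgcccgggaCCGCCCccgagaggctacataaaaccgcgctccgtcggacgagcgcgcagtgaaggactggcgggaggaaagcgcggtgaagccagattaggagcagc
Dusp6: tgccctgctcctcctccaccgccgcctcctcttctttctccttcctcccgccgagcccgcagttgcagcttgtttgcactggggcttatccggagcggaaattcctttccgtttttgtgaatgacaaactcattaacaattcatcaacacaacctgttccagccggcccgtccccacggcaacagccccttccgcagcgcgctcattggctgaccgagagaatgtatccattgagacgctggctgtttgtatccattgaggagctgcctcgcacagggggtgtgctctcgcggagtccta
Spred1: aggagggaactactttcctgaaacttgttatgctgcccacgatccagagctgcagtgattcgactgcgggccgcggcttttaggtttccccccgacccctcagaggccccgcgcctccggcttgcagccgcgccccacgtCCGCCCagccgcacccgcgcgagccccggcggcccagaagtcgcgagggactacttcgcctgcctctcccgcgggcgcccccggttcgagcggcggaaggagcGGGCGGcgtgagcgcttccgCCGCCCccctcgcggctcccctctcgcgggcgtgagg
Dusp5: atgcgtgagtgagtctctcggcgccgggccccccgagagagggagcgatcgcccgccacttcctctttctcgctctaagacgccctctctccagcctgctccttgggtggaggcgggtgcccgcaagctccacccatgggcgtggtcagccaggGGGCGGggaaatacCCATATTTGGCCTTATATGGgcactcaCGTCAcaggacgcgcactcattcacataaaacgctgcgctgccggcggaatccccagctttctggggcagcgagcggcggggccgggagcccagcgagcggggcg
Of the 10 members, 8 matched the promoter table. Both strands were searched for 9 motifs, and the share of all 32851 promoter windows holding each is given beside it. The motifs were the STAT site TTCNNNGAA (8.30%), the full CRE TGACGTCA (1.79%), the CRE core TGACG (20.8%), AP-1 as TGANTCA (7.81%), the ETS site CCGGAAG (8.86%), the EGR site GCGTGGGCG (0.612%), the GC box GGGCGG (35.7%), TATAAA (13.6%) and the CArG box (1.63%), the site of serum response factor. The Dusp1 window holds a full CRE 143 bases before the start, the palindrome to which CREB and ATF factors bind. It also holds CRE cores at 191, 143 and 140 bases before it, of which those at 143 and 140 lie within the full CRE, and GC boxes at 150, 135 and 48. The Dusp5 window holds CArG boxes at 82 and 72 bases before the start, directly beside each other, a GC box at 96 and a CRE core at 55. The Spred1 window holds only GC boxes, at 110 and 7 bases before the start and 13 after it. None of the 9 motifs is in the Dusp6 window. A match describes the letters only. No STAT site in these letters is in any of the 8 windows, which says nothing of sites elsewhere or in other spellings.

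In plus arrays, Dusp1 and Dusp6 fell and Spred1 rose relative to minus arrays in both genotypes. Spry1 fell in knockouts and Spry2 rose in controls, calls that held in 10 and 14 of 26 alternatives. Calls are genes with an adjusted p under 0.05 in limma with Benjamini-Hochberg adjustment over 10582 genes. In knockouts, 3 of the 8 tested members were lower and 1 higher, where 9.72% of all genes were called lower and 9.03% higher. In controls, 2 were lower and 2 higher, where 11.6% of all genes were called lower and 10.6% higher. The median log2 difference of the 8 members was -0.58 in knockouts and -0.42 in controls, and that of all genes -0.06 and -0.02. Plus and minus arrays did not overlap in 5 of the 8 members in knockouts (23.6% of all genes) and in 3 of the 8 in controls (25.1% of all genes). Both comparisons were thus broad, and the group moved in both directions.

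**Figure D1:**
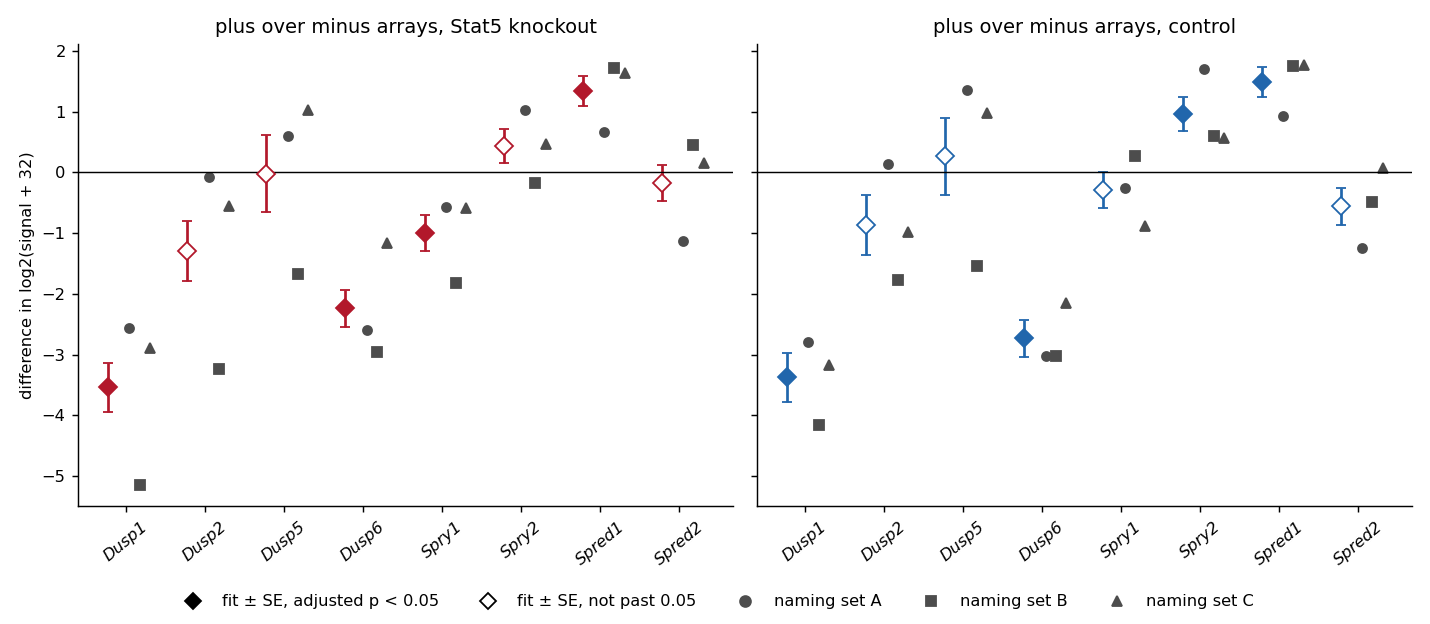
Difference in log2(signal + 32) between plus and minus arrays for the 8 tested members, in Stat5 knockouts on the left and controls on the right. Diamonds with bars are the fit and its SE, filled where the adjusted p was under 0.05, and grey marks are the differences within each naming set. Dusp1 and Dusp6 lie below 0 and Spred1 above 0 in all sets of both genotypes, while Dusp5 is below 0 in set B and above it in sets A and C.

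Dusp1, also known as MKP-1, is a nuclear phosphatase of p38, JNK and ERK and a classical immediate early gene. It is read by 1 probe set (Dusp1, chr17:26505591-26508472). Its signal was 1212, 762 and 1219 in the knockout plus arrays of sets A, B and C, against 7331, 28123 and 9294 in knockout minus arrays. It was 1416, 1644 and 1398 in control plus arrays, against 9959.7, 29763 and 12904 in control minus arrays. The groups were far apart in both genotypes, and the set B minus arrays were the highest of all 12. The difference was -3.54 ± 0.40 on the log2 scale in knockouts (SE, 3 arrays per group), 11.6-fold lower in plus arrays, with limma's adjusted p = 0.000269. In controls it was -3.37 ± 0.40, 10.3-fold lower, with an adjusted p = 0.000299. Without set B the differences were -2.73 ± 0.15 in knockouts and -2.98 ± 0.15 in controls. With that RNA ratio of beta-actin added to the model they were -3.58 ± 0.63 and -3.41 ± 0.61.

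Dusp6, also known as MKP-3, is the cytoplasmic phosphatase that binds and inactivates ERK, and its RNA is widely used as a readout of ERK activity. It has 1 probe set (chr10:99263231-99267489). The signal was 223, 246 and 1219 in the knockout plus arrays of sets A, B and C, against 1509.8, 2119 and 2783 in knockout minus arrays. In controls it was 114, 171 and 523 in plus arrays, against 1158, 1621 and 2426 in minus arrays. The groups did not overlap in either genotype, and set C was the highest within every group. The difference was -2.24 ± 0.31 in knockouts, 4.72-fold lower in plus arrays, and -2.73 ± 0.31 in controls, 6.65-fold lower. The adjusted p from limma was 0.000876 in knockouts and 0.000238 in controls. It was -1.17 in set C of the knockouts, the smallest of the 6 differences within sets, which otherwise ran from -3.03 to -2.15. Without the naming set in the model the knockout call was lost, with an adjusted p of 0.0807. With the beta-actin ratio added to the model the differences were -1.55 ± 0.40 in knockouts and -2.10 ± 0.38 in controls, both still called.

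Dusp2, known as PAC-1, is a nuclear phosphatase first found in activated lymphocytes. Its signal was 1219, 587 and 832 in knockout plus arrays of sets A, B and C, against 1291, 5788 and 1242 in knockout minus arrays. It was 1159.8, 851 and 791 in control plus arrays, against 1053, 2974 and 1589 in control minus arrays. The set B minus arrays were the highest in both genotypes, and the difference was larger in set B than in the other sets. It was -1.29 ± 0.50 in knockouts (limma, unadjusted p = 0.0232, adjusted p = 0.0895) and -0.87 ± 0.50 in controls (adjusted p = 0.230), and neither passed the threshold. Without set B it was -0.32 ± 0.27 in knockouts and -0.42 ± 0.27 in controls.

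Dusp5 is a nuclear phosphatase that acts on ERK alone and also holds it in the nucleus. Its signal was 432, 258 and 362 in knockout plus arrays of sets A, B and C, against 276, 897 and 162 in knockout minus arrays. It was 537, 70.8 and 396 in control plus arrays, against 190.1, 268 and 186 in control minus arrays. In sets A and C the plus array was higher in both genotypes, by 0.59 and 1.02 in knockouts and by 1.36 and 0.97 in controls. In set B it was lower, by -1.68 in knockouts and -1.54 in controls. The fit over all arrays gave -0.02 ± 0.63 in knockouts and 0.26 ± 0.63 in controls, with 95% intervals of -1.39 to 1.35 and -1.11 to 1.64. Without set B, Dusp5 was called higher in plus arrays, by 0.81 ± 0.21 in knockouts (limma, adjusted p = 0.0257) and by 1.17 ± 0.21 in controls (adjusted p = 0.00563). This direction thus rests on the 8 arrays of sets A and C, and the part of RNA quality in set B was not tested.

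Dusp4, or MKP-2, is a nuclear phosphatase of ERK and JNK. Its probe set (chr8:34807610-34819894) was near or below the level filter in most arrays. The signal was 82.3, 28.2 and 307 in knockout plus arrays of sets A, B and C, against 41.5, 26.9 and 24.3 in knockout minus arrays. It was 59.7, 20.1 and 166 in control plus arrays, against 23.9, 23.0 and 14.6 in control minus arrays. Its mean was 6.34 on the log2(signal + 32) scale, where the filter was 6.76. The plus array of set C was the highest of its group in both genotypes. Differences in set C were 2.59 in knockouts and 2.09 in controls. They were 0.64 and 0.72 in set A and 0.03 and -0.08 in set B, all given without a test.

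**Figure D2:**
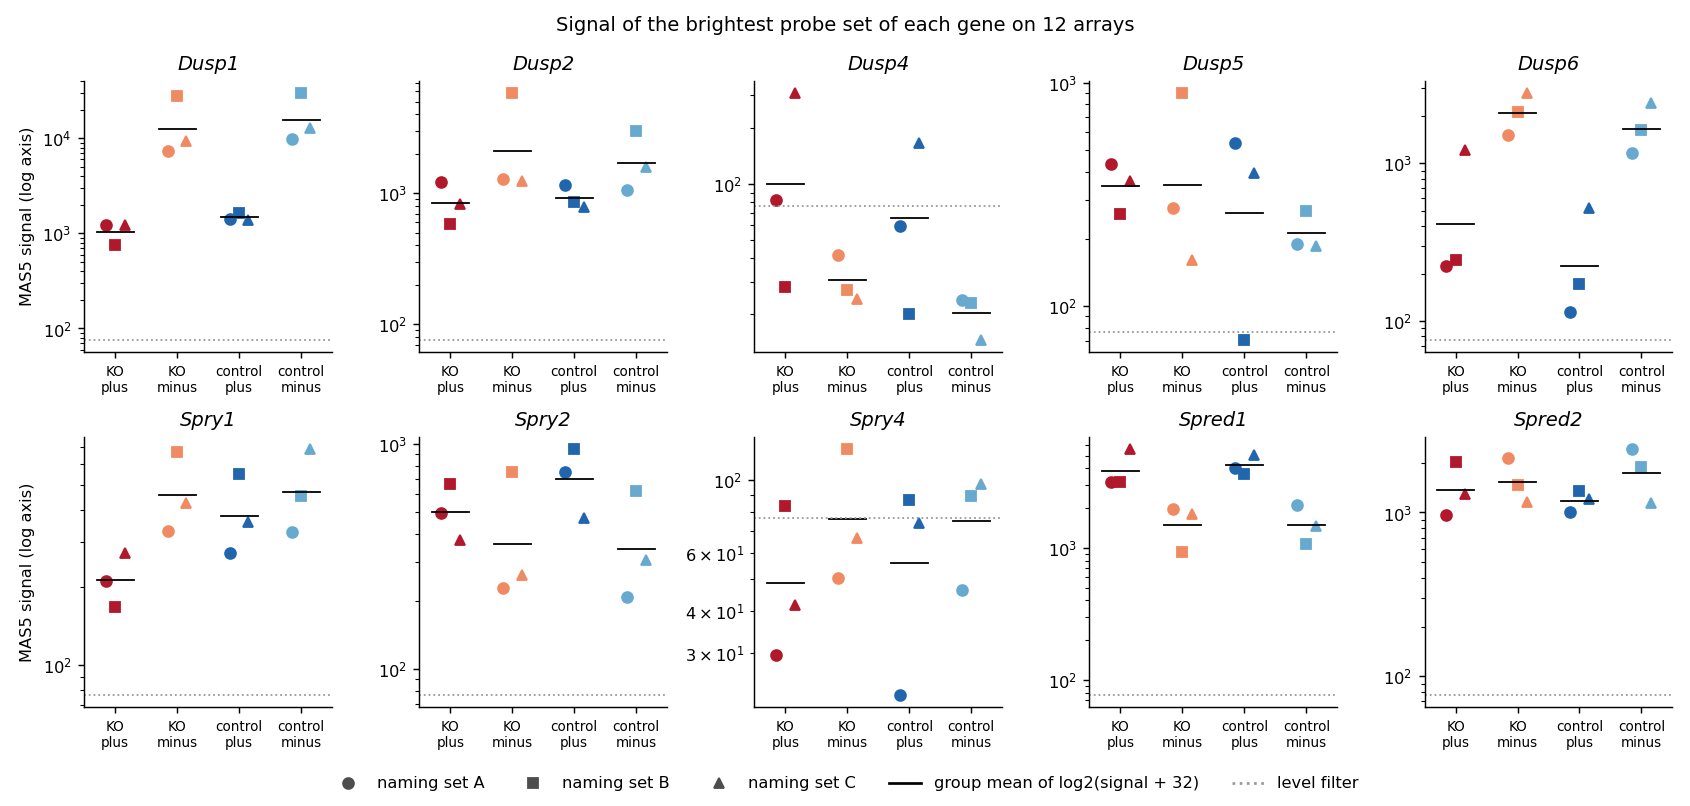
MAS5 signal on a log axis of the brightest probe set of each of the 10 genes on the 12 arrays, with marker shape for the naming set, a black line for the group mean of log2(signal + 32) and a dotted line for the level filter. Dusp1 and Dusp6 are lower in both plus groups than in both minus groups, and Spred1 is higher. Spry4 scatters around or below the filter. Dusp4 does so too, except in the set C plus arrays, at 307 in knockouts and 166 in controls.

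Spry1 and Spry2 are Sprouty proteins, which become phosphorylated on tyrosine after receptor activation and bind adaptors such as Grb2. The Spry1 signal (chr3:37639947-37644599) was 212, 167 and 271 in knockout plus arrays of sets A, B and C, against 331, 672 and 424 in knockout minus arrays. It was 270.9, 551 and 358 in control plus arrays, against 328, 453 and 689 in control minus arrays. The knockout groups did not overlap, while the control groups did. In knockouts Spry1 fell by 0.99 ± 0.30 on the log2 scale, 1.99-fold, with limma's adjusted p = 0.0380. In controls the difference was -0.29 ± 0.30 (adjusted p = 0.519). The difference between genotypes in this effect was -0.70 ± 0.42 (limma, adjusted p = 0.954) and did not pass the test. The knockout call held in 10 of 26 alternatives. It was lost with the knockout minus array of set B as a control, where it was -0.79 (adjusted p = 0.158), and without set B, where it was -0.58 (adjusted p = 0.0921).

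The Spry2 signal (chr14:105891947-105896819) was 495, 665 and 373 in knockout plus arrays of sets A, B and C, against 228, 755 and 263 in knockout minus arrays. It was 753, 953 and 472 in control plus arrays, against 208, 617 and 307 in control minus arrays. The groups overlapped in both genotypes, since the sets lie at different levels, yet within each set the control plus array was the higher one. In controls Spry2 rose by 0.96 ± 0.28, 1.95-fold, with limma's adjusted p = 0.0304. In knockouts the difference was 0.43 ± 0.28 (adjusted p = 0.302), and the difference between genotypes was -0.53 ± 0.40 (limma, adjusted p = 0.954). The control call held in 14 of 26 alternatives. Centring the arrays on their medians, which changed every difference between signs in controls by -0.20, gave 0.76 with an adjusted p of 0.0578, and adding the beta-actin ratio to the model gave 0.57 with an adjusted p of 0.350. The second probe set of Spry2 lay below the filter. All 4 probe sets of Spry4, another Sprouty gene, were below the filter too. The brightest had 29.6 to 83.1 in knockout plus arrays against 50.4 to 124 in knockout minus arrays, and 22.3 to 86.7 in control plus arrays against 46.3 to 97.0 in control minus arrays.

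Spred1 is the Sprouty-related protein that binds neurofibromin and is lost in Legius syndrome in humans. It was the member called higher in plus arrays of both genotypes (chr2:117121071-117182279). Its signal was 3131, 3138 and 5626 in knockout plus arrays of sets A, B and C, against 1964, 936 and 1789.9 in knockout minus arrays. It was 4049, 3657 and 5093 in control plus arrays, against 2105, 1063 and 1474 in control minus arrays. Every plus array lay above every minus array. The difference was 1.34 ± 0.24 in knockouts, 2.53-fold higher (limma, adjusted p = 0.00401), and 1.48 ± 0.24 in controls, 2.80-fold higher (adjusted p = 0.00187). It was smallest in set A, at 0.66 in knockouts and 0.93 in controls, and 1.64 to 1.77 in sets B and C. Without the naming set in the model the knockout call was lost (adjusted p = 0.0737), and likewise without set C, where the difference was 1.19 (adjusted p = 0.0835). With the beta-actin ratio added to the model the differences were 1.85 ± 0.32 in knockouts and 1.96 ± 0.30 in controls.

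Spred1 has 8 probe sets, of which 6 had a mean above the level filter. In those 6 the fitted difference was above 0 in both genotypes, at 0.62 to 1.34 in knockouts and 0.81 to 1.48 in controls. In a fit of all 34945 probe sets with 1 symbol, 3 of the 8 were called higher in each genotype, where 3.16% of all probe sets were called higher in knockouts and 4.46% in controls. These probe sets share a gene and arrays and are not independent. The third brightest had 1 exception within sets, in the knockouts of set B, at 179.9 in the plus array against 266 in the minus array. Both dim probe sets went without a common direction. One of them had 54.6 to 81.4 in knockout plus arrays against 28.0 to 38.1 in knockout minus arrays, and 6.44 to 44.1 in control plus arrays against 29.9 to 131 in control minus arrays.

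**Figure D3:**
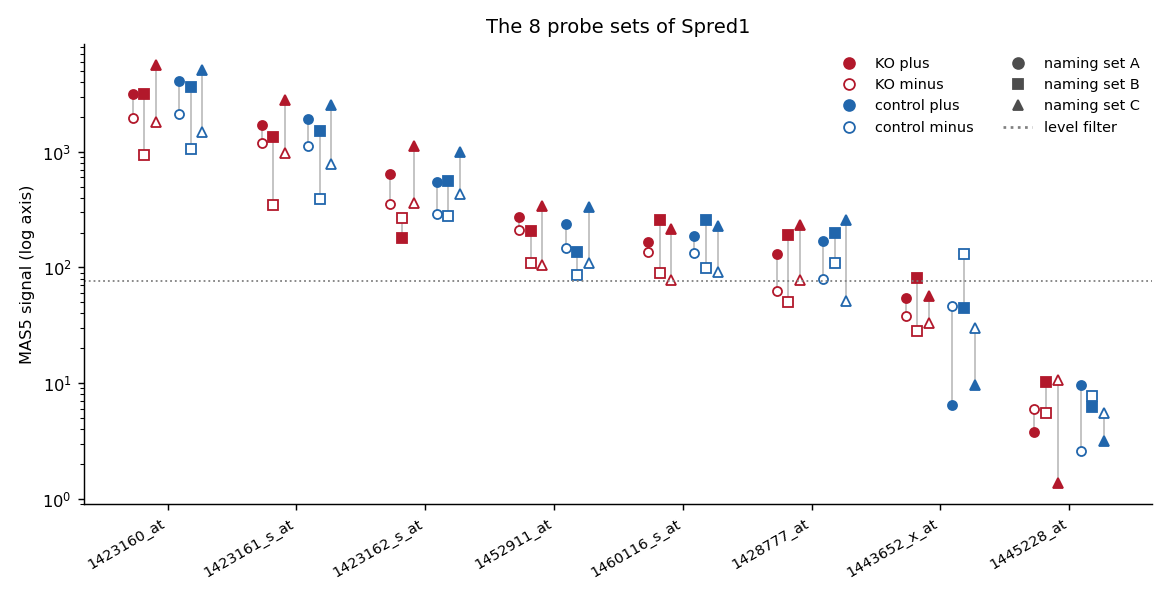
MAS5 signal on a log axis for the 8 probe sets of Spred1, ordered by mean level, with filled marks for plus arrays, open marks for minus arrays and a line joining the arrays of a genotype and naming set. In the 6 probe sets above the dotted level filter, fitted differences were 0.62 to 1.34 in knockouts and 0.81 to 1.48 in controls, and the 2 below it show no common direction.

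Spred2, the closest relative of Spred1, did not pass the test in either genotype. Its signal (chr11:19924442-20024026) was 961, 2027 and 1302 in knockout plus arrays of sets A, B and C, against 2141, 1482 and 1163 in knockout minus arrays. It was 1009, 1349 and 1204 in control plus arrays, against 2448, 1909.7 and 1145 in control minus arrays. The groups overlapped, and the plus array was lower in set A of both genotypes. The difference was -0.18 ± 0.30 in knockouts and -0.56 ± 0.30 in controls, with 95% intervals of -0.84 to 0.48 and -1.22 to 0.10. None of the 5 Spred2 probe sets was called in the fit of all probe sets.

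The loss of Stat5 was compared at each sign. In plus arrays, 0 of the 8 members were called in limma, where 0.0189% of all genes were called, namely Stat5a and Stat5b. At an unadjusted p under 0.05 there were 2 members and 1038 of all genes. These were Dusp6, with 223, 246 and 1219 in knockout plus arrays against 114, 171 and 523 in control plus arrays, and Spry1, with 212, 167 and 271 against 270.9, 551 and 358. The Dusp6 difference was 0.81 ± 0.31 (limma, adjusted p = 0.507), above 0 in each of the 3 sets, while the groups overlapped. The Spry1 difference was -0.74 ± 0.30 (limma, adjusted p = 0.507), and within sets it was -1.55 in set B and -0.31 and -0.36 in sets A and C. The groups did not overlap in 1 of the 8 members, where 5.65% of all genes had no overlap. This was Dusp1, at 762 to 1219 in knockout plus arrays against 1398 to 1644 in control plus arrays, with a difference of -0.50 ± 0.40 (limma, adjusted p = 0.604). Over the 8 members the 95% intervals reached from -1.39 to 1.73, so a difference as large as that of Dusp1 between signs lies outside them, while a difference inside them is not shown to be absent.

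In minus arrays, again 0 of the 8 were called in limma, where 0.0189% of all genes were called, and 0 had an unadjusted p under 0.05, against 250 of all genes. The groups overlapped in each of the 8, where 4.32% of all genes had no overlap. The differences were -0.33 to 0.64, with 95% intervals within -1.20 to 2.02. Dusp1, with the lowest of these, had 7331, 28123 and 9294 in knockout minus arrays against 9959.7, 29763 and 12904 in control minus arrays, and the differences within sets were -0.47 to -0.08. The Spred1 interval there was -0.53 to 0.53. The plus effect in knockouts less that in controls was called for 0 of the 8 in limma, where 0.0% of all genes were called, and 0 of the 8 and 223 of all genes had an unadjusted p under 0.05. For Dusp1 it was -0.17 ± 0.56, for Dusp6 0.49 ± 0.44 and for Spred1 -0.15 ± 0.35. Centring each array on its median changed every knockout over control difference by 0.19 in plus arrays and 0.06 in minus arrays. This turned the sign of the small differences of Dusp2 and Spred1 in plus arrays and of Spry1 and Spred1 in minus arrays.

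**Figure D4:**
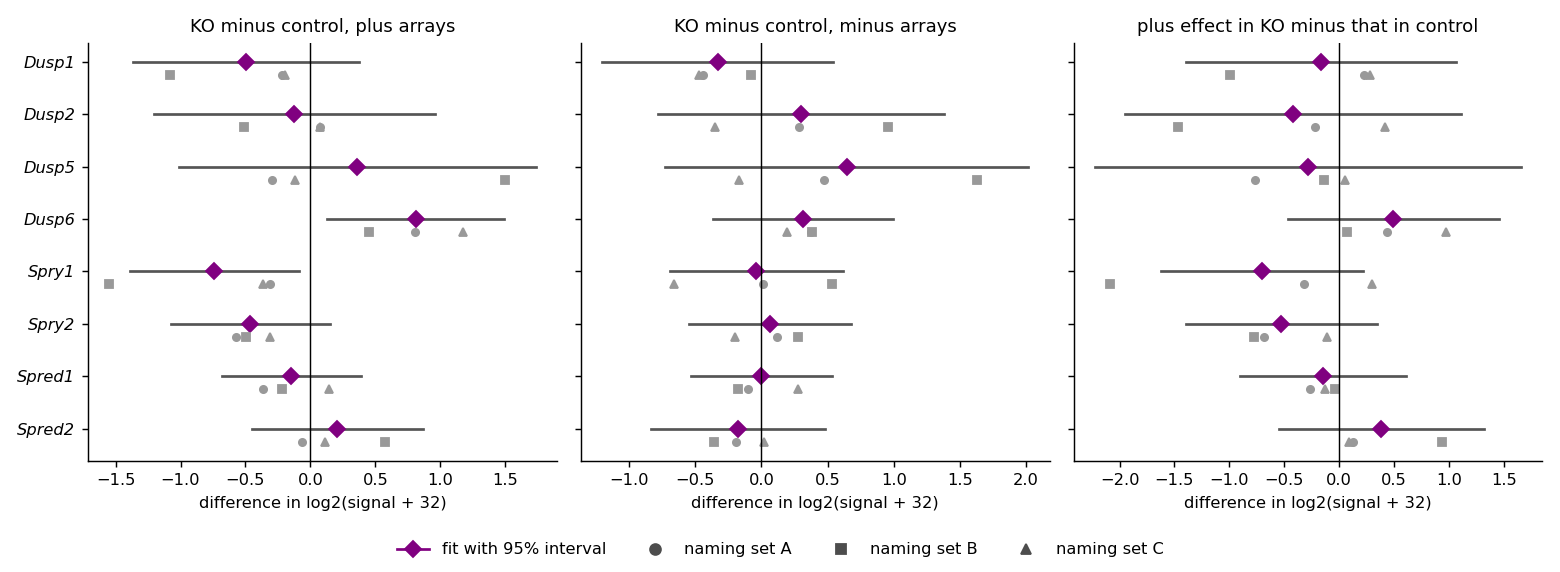
Difference in log2(signal + 32) between knockout and control arrays for the 8 tested members, in plus arrays, in minus arrays, and as the plus effect in knockouts less that in controls. Diamonds with bars are the fit with its 95% interval and grey marks are the differences within each naming set. Most intervals include 0, and those of Dusp6 (0.13 to 1.49) and Spry1 (-1.39 to -0.09) in plus arrays do not, although neither passed the adjusted threshold.

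Genes around these regulators were then counted, from lists chosen with earlier results of these arrays known. Each count is to be read against the share of all genes called, which was 9.72% lower and 9.03% higher in knockouts, and 11.6% lower and 10.6% higher in controls. Among ERK-driven transcription targets, 6 of 16 tested genes were lower in plus arrays and 0 higher in each genotype, with a median of -0.89 in knockouts and -0.06 in controls. Those called lower included Fosb (-5.09 ± 0.39 in knockouts, -5.30 ± 0.39 in controls), Egr1 (-2.98 ± 0.46 and -3.16 ± 0.46), Fos (-3.11 ± 0.56 and -3.73 ± 0.56) and Myc (-1.74 ± 0.25 and -1.43 ± 0.25). The other 10 did not pass in either genotype and went both ways. For example, Phlda1 had 0.52 ± 0.44 in knockouts and 1.20 ± 0.44 in controls, and Ier3 had -0.99 ± 0.36 and 0.17 ± 0.36. Several of the targets called lower, with Dusp1, belong to the early genes that also rise when cells are taken from tissue. Of 16 such dissociation and early stress genes, 10 were lower and 0 higher in each genotype, and the other 6 did not pass. Among the lower ones were Jun (-4.23 ± 0.66 in knockouts, -3.88 ± 0.66 in controls) and the heat shock gene Hspa1a (-2.41 ± 0.39 in knockouts, -2.49 ± 0.39 in controls). The part of cell handling in the Dusp1 difference was not tested.

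In the cascade itself, more genes were called higher than lower. Of 17 tested genes of the core RAS-ERK cascade, 5 were higher and 1 lower in knockouts, and 5 higher and 0 lower in controls, with medians of 0.17 and 0.29. The docking proteins Gab1 (1.34 ± 0.21 in knockouts, 1.08 ± 0.21 in controls) and Gab2 (0.81 ± 0.18 and 1.26 ± 0.18), the small GTPase Rras (1.05 ± 0.24 and 1.22 ± 0.24) and the kinase Braf (0.88 ± 0.19 and 0.65 ± 0.19) rose in both genotypes. Among 8 RAS GTPase activators and exchange factors, 2 were higher in knockouts and 1 in controls, with 0 lower, and the count in controls is near the 10.6% of all genes. Rasa2, a RAS GTPase activator, rose by 1.71 ± 0.27 in knockouts and 1.19 ± 0.27 in controls. Its relative Rasa1 rose by 0.77 ± 0.21 in knockouts and did not pass in controls (0.62 ± 0.21, limma, adjusted p = 0.0531). Nf1, the neurofibromin that Spred1 carries, differed by 0.55 ± 0.27 in knockouts and 0.45 ± 0.27 in controls and did not pass (limma, adjusted p = 0.169 and 0.247).

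Of 8 other dual-specificity phosphatases tested, 3 were higher in knockouts (9.03% of all genes) and 2 in controls (10.6% of all genes). The 0 lower of 8 is near the 9.72% and 11.6% of all genes called lower. Dusp3, known as VHR, rose by 1.61 ± 0.19 in knockouts and 1.51 ± 0.19 in controls, and Dusp16, which acts on JNK and p38, by 1.52 ± 0.20 and 1.46 ± 0.20. Dusp22, an atypical phosphatase, rose by 0.85 ± 0.27 in knockouts and did not pass in controls (0.76 ± 0.27, limma, adjusted p = 0.0647). Dusp7, of the same subfamily as Dusp6, had -1.20 ± 0.44 in knockouts and did not pass (limma, adjusted p = 0.0768). Of 6 further partners, 0 were lower, and the ERK-binding protein Pea15a rose in both genotypes (0.97 ± 0.28 in knockouts, 1.20 ± 0.28 in controls). The receptor inhibitor Errfi1 rose in controls (2.40 ± 0.56) and did not pass in knockouts (1.02 ± 0.56, limma, adjusted p = 0.222). Of 9 ERK-regulated transcription factors, 2 were higher and 1 lower in knockouts, and 1 higher and 1 lower in controls. The counts of 1 are near the shares of all genes, 9.72% lower in knockouts and 10.6% higher and 11.6% lower in controls. In knockouts, 9.03% of all genes were higher. Elk4 rose (0.75 ± 0.20 in knockouts, 0.67 ± 0.20 in controls) and Srf, the factor that binds CArG boxes, fell (-0.97 ± 0.27 and -0.87 ± 0.27). Elk3 rose in knockouts (0.84 ± 0.23) and did not pass in controls (0.51 ± 0.23, limma, adjusted p = 0.140). Of the 9, 6 in knockouts and 7 in controls did not pass.

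Of 15 genes of the p38 and JNK branches, which Dusp1 also dampens, 4 were higher and 1 lower in knockouts, and 5 higher and 1 lower in controls. Map3k8, a kinase that feeds the ERK cascade, had the smallest p of the list in both genotypes (2.39 ± 0.31 in knockouts, 2.68 ± 0.31 in controls). The stress kinase Map3k5, known as ASK1, rose too (1.02 ± 0.24 and 1.29 ± 0.24). The stress-induced gene Gadd45b rose in both genotypes (2.00 ± 0.44 in knockouts, 2.06 ± 0.44 in controls). Gadd45a, also stress-induced, fell in knockouts (-1.83 ± 0.50) and did not pass in controls (-1.40 ± 0.50, limma, adjusted p = 0.0654). The p38 activating kinase Map2k3 rose in knockouts (0.90 ± 0.29, limma, adjusted p = 0.0494) and in controls (1.46 ± 0.29). Map2k6, which has the same role, fell in controls (-1.90 ± 0.38) and did not pass in knockouts (-1.18 ± 0.38, limma, adjusted p = 0.0515). Of 9 genes listed as RNA decay factors of early transcripts, 1 was higher and 1 lower in knockouts, and 1 higher and 2 lower in controls. The counts of 1 are near the shares of all genes, 9.03% higher and 9.72% lower in knockouts and 10.6% higher in controls. In controls, 11.6% of all genes were lower. Btg1 rose (0.90 ± 0.16 in knockouts, 1.07 ± 0.16 in controls) and Zfp36, known as tristetraprolin, fell (-1.85 ± 0.48 and -1.51 ± 0.48). Hnrnpd, known as AUF1, fell in controls (-0.81 ± 0.20) and did not pass in knockouts (-0.34 ± 0.20, limma, adjusted p = 0.26). In none of the 9 lists was a gene called in limma between knockout and control arrays at either sign or in the difference of effects.

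**Figure D5:**
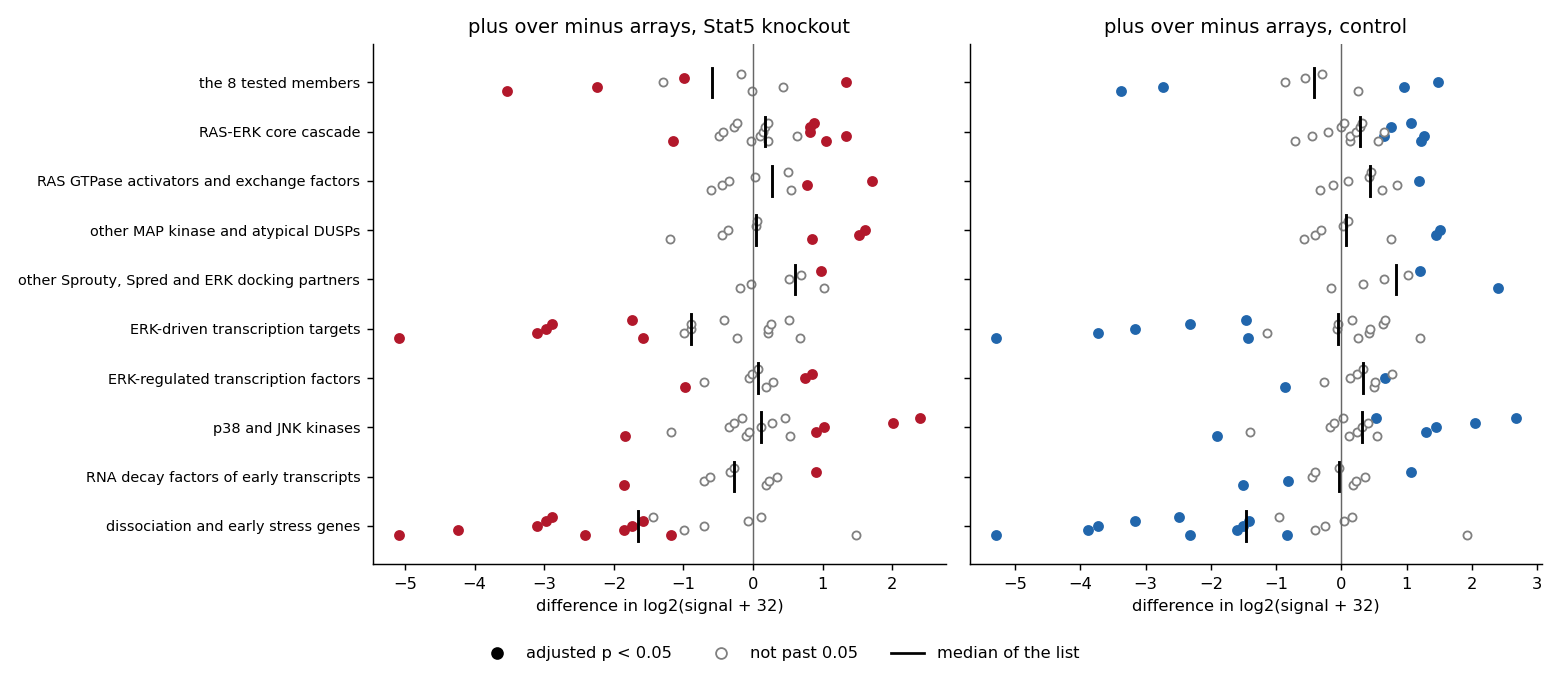
Difference in log2(signal + 32) between plus and minus arrays for the tested genes of each list, in Stat5 knockouts on the left and controls on the right. Each point is 1 gene, filled where the adjusted p was under 0.05, and the black line is the median of the list. The ERK-driven targets and early stress genes hold filled points on the lower side only. The other phosphatases, the RAS GTPase activators and exchange factors, and the other Sprouty, Spred and docking partners hold them on the higher side only.

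For each tested member, the genes with the most similar pattern were sought by Pearson's r of log2 values, less the mean of the naming set, over the 12 arrays and 10582 genes. This is a description, since the arrays are shared and the plus and minus groups alone can give high values. Dusp1 was most like Bysl (0.997), Egr1 (0.994) and Mc5r (0.994). Dusp6 was most like Alms1 (0.992), Yipf1 (0.979) and Isy1 (0.978), and Spred1 most like Rabl2 (0.986), D5Ertd579e (0.985) and Kdm3a (0.985). For Spry2 the top genes were Srgap2 (0.989), Galnt7 (0.985) and Mettl27 (0.971), and for Spry1 they were Praf2 (0.962), Mrpl20 (0.958) and Ifnz (0.951). For Dusp2 they were Ankrd13a (0.974), Ptcd2 (0.969) and Fzr1 (0.965), for Dusp5 Wdr45b (0.952), Eif5 (0.924) and Zfp622 (0.911), and for Spred2 Echdc1 (0.925), Gcsh (0.917) and Ccnd2 (0.915). Among the tested members, Dusp5 and Spred2 had the lowest top values.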

How the data were processed

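RNA of mouse blood cells was hybridised to 12 one-colour Affymetrix arrays. The authors deposited 1 linear intensity per probe set and array, computed with MAS5 per the submitters' processing notes. The version of MAS5 and its scaling target are not given in the sources used here. The mean signal after trimming 2% at each end was 500.0 in every array, and array medians ran from 59.7 to 114. An array has no counting depth, so the number of arrays limits the precision.

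Of 45101 probe sets, 34958 had 1 symbol in the supplied probe table, 932 had several and 9211 were not listed. Signals were turned into log2(signal + 32). The brightest probe set by mean stood for its gene. Genes had to reach a mean of 6.76, which is the median over probe sets, to be tested. One limma fit (3.58.1, R 4.3.3, eBayes with trend) over 12 arrays had terms for group and naming set. It left 6 residual degrees of freedom, and the prior added 5.78. It gave 5 contrasts, tested two-sided, and p-values were adjusted by Benjamini-Hochberg across 10582 genes. Errors are standard errors of this fit. The chain was also run on simulated data with normal errors, which did not imitate the RNA quality of set B.

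Named genes were the members, Stat5a, Stat5b, up to 4 genes of smallest p per list and contrast, and the 3 most similar genes per member. Of these list genes, the text gives those that passed between plus and minus arrays, with Nf1, Dusp7, Phlda1 and Ier3 as examples that did not. The members and lists were chosen with earlier results of these data known. Alternatives changed the added constant, level filter, scaling, probe set rule, naming set, conflicting label, RNA ratio and arrays.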

Additional observations from a re-analysis of the deposited data

How the results depend on the processing

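Each value was recomputed under 26 alternatives (25 for the interaction, which needs all arrays). The direction and call of Dusp1 held in 26 of 26 in both genotypes (-4.02 to -2.73 in knockouts, -3.66 to -2.98 in controls), as did those of Dusp6 (-3.03 to -2.10) and Spred1 (0.73 to 1.96) in controls. In knockouts the call held in 25 of 26 for Dusp6 and 24 of 26 for Spred1. With no replicate block (naming set left out), 1 member was called in knockouts in place of 4, and 2 without set C. With Dusp2 lower without the set A knockout plus array (-1.73, limma, adjusted p = 0.0469), 5 were called. The count of all genes called ran from 298 to 2648 around 1985 in knockouts and from 470 to 3450 around 2344 in controls. The labels do not number the arrays, so the naming set served as the block. Signal near the level filter limited Dusp4 and Spry4.

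Signs changed in 72 values, and 1 of these was called in the alternative, Dusp5 in knockouts without set B. The cause was not tested. Between signs in knockouts, Dusp5 was 0.0034 with a constant of 1, 0.71 with the set B knockout minus array as a control and 0.81 without set B, and Spred2 was 0.34 with the beta-actin covariate and 0.30 without set A. In controls Dusp5 was -0.26 with that array as a control, -0.46 with the covariate, -0.28 without set A and -0.092 without set C, and Spry1 was 0.0069 without set C. Leaving out single arrays gave Dusp5 -0.59 to 0.89 and Spred2 -0.41 to 0.19 in knockouts, and Dusp5 -0.24 to 1.22 in controls.

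For knockout against control in plus arrays, Dusp2 was 0.070 with median centring and 0.070 without set B, Dusp5 -0.21 without set B, Spred1 0.046 with median centring and 0.041 as the mean of its probe sets, and Spred2 -0.18 as that mean. Leaving out single arrays gave Dusp1 -0.85 to 0.10, Dusp2 -0.56 to 0.48, Dusp5 -0.59 to 0.86, Spred1 -0.34 to 0.13 and Spred2 -0.031 to 0.57.

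With the set B knockout minus array as a control, the genes called in knockouts numbered 972, and Dusp2 in knockouts was -0.72. In minus arrays Dusp1 was then -0.90, Spry1 -0.34 and Dusp6 0.028, while Dusp2 was -0.64, Dusp5 -0.61, Spry2 -0.25, Spred1 0.21 and Spred2 0.074. Without set B, Dusp2 was -0.031, Spry2 -0.044 and Spred1 0.088. Median centring gave Spry1 0.024 and Spred1 0.061, leaving out set C gave Spry1 0.27, and for Spred1 a constant of 100 gave 0.00062 and leaving out set A 0.049. Leaving out single arrays gave Dusp2 -0.39 to 0.67, Dusp5 -0.26 to 1.21, Spry1 -0.27 to 0.20, Spry2 -0.17 to 0.27, Spred1 -0.19 to 0.24 and Spred2 -0.45 to 0.10.

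For the plus effect in knockouts less that in controls, the set B knockout minus array as a control gave Dusp1 0.41, Dusp2 0.51 and Dusp5 0.97, and leaving out set B gave Dusp1 0.25 and Dusp2 0.10. The mean of all probe sets gave Spred1 0.10 and Spred2 -0.13. Leaving out single arrays gave Dusp1 -0.52 to 0.43, Dusp2 -0.85 to 0.27, Dusp5 -1.24 to 0.62 and Spred1 -0.38 to 0.13.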
